A study of Mus musculus with 4 samples.

Results

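The genes described here are 10 members of the epidermal growth factor (EGF) signalling family: the ligands Nrg1, Hbegf, Areg, Ereg, Tgfa, Btc and Egf, and the receptors Egfr, Erbb2 and Erbb3. They were chosen by gene symbol from the 24421 symbols of a read count table, with earlier results of these data known. All 10 are in that table. The table holds 4 bulk RNA-seq libraries of fibro-adipogenic progenitors (FAPs), the mesenchymal stromal cells of skeletal muscle, sorted from 2 mice into cells without (DPPIV-) and with (DPPIV+) the surface protease DPPIV. All 4 libraries came from wild-type mice given 3 weeks of CSF1R inhibition, which depletes resident macrophages, and then a regular diet for 3 days. No untreated group was analysed here, so every comparison is between cell types of treated animals, and the 4 libraries cannot show what the depletion itself did. The sort kept living PI- CD31- CD45- Sca1+ cells of dissociated hindlimb muscle, while the sample labels name the tibialis anterior as the source. DPPIV- and DPPIV+ cells of 1 mouse form a pair, giving n = 2 mice.

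EGF family ligands are made as membrane-bound precursors, and proteases, chiefly of the ADAM family, release their soluble ectodomains. The released ligands bind ErbB receptors, which form dimers, become phosphorylated and switch on the RAS-ERK and PI3K-AKT cascades. EGFR binds EGF, TGF-alpha, amphiregulin, betacellulin, HB-EGF and epiregulin, whereas ERBB3 binds neuregulins, has little kinase activity of its own and signals with a partner, often ERBB2, which has no known ligand. In muscle and its nerves, neuregulin and ErbB receptors are known for their part in Schwann cell and neuromuscular junction development.

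In the order mouse 1, mouse 2, the library totals of DPPIV- FAPs were 20879405 and 19196629 reads, and those of DPPIV+ FAPs 18240110 and 18525933. Paired values below keep this order of the mice. Values are given as CPM, reads per 1000000 reads of the library after TMM scaling, and a count of 0 allows up to 3 counts, or 0.143 to 0.167 CPM. Dpp4, the gene for the sorted protein, stood at 89.8 and 39.7 CPM in DPPIV- FAPs and at 728 and 575 CPM in DPPIV+ FAPs, so the sort labels matched the RNA in both mice. The stromal gene Pdgfra stood at 1657 and 1476 CPM in DPPIV- FAPs and at 1241 and 1159 CPM in DPPIV+ FAPs. Ly6a, which encodes Sca1, stood at 999 and 962 CPM in DPPIV- FAPs and at 1471 and 1456 CPM in DPPIV+ FAPs. In the edgeR test described below, 2 of 7 FAP markers were higher in DPPIV+ FAPs and 4 lower, against 15.9% and 17.2% of all genes tested. Of 5 epithelial markers, the keratins Krt8, Krt18, Krt5 and Krt14 had 0 reads in every library and Epcam had 2 reads in all. In bulk samples such as these, fewer cells that express a gene and less RNA per cell cannot be told apart.

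Promoter sequence is shown for 3 ligand genes, because Tgfa and Btc both had more reads in DPPIV+ FAPs of each mouse while Areg, a neighbour of Btc on chromosome 5, stayed near the detection limit. Each line gives the 250 bases before the RefSeq transcription start (GRCm38.p6), written 5′ to 3′ on the gene's strand, with motif matches in capitals. The motifs searched on both strands were an AP-1 site (TGANTCA), a CRE (TGACGTCA), a GC box (GGGCGG) and a TATA box (TATAAA).
Tgfa, chromosome 6, 86194972 to 86195221, plus strand: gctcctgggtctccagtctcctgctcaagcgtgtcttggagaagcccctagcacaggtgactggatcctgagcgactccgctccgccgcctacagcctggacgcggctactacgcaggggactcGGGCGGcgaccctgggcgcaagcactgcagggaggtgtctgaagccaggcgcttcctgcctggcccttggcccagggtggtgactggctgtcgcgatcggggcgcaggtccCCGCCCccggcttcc
Btc, chromosome 5, 91402995 to 91403244, minus strand: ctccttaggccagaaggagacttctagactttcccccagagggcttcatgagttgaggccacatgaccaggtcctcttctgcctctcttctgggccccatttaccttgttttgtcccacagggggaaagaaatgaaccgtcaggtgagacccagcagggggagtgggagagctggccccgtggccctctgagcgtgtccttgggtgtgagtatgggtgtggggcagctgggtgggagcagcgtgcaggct
Areg, chromosome 5, 91139349 to 91139598, plus strand: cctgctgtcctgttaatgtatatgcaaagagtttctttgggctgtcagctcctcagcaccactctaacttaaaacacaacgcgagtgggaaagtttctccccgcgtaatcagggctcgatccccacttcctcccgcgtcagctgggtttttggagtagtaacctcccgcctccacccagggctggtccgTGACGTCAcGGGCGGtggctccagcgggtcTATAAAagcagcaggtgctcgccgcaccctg
The Tgfa window held 2 GC boxes, 126 and 15 bases before the start, and none of the other letters searched. The Btc window held no match to any of the 4 motifs. The Areg window held a CRE 61 bases, a GC box 52 bases and a TATA box 31 bases before the start. Among 32851 mouse promoter windows of the same length, 6.75% held the AP-1 letters, 1.55% the CRE, 32.7% the GC box and 12.4% the TATA box. Windows were found for 6 of the 10 genes, the others being Egf, with 2 starts and no match in either, Erbb2, with no match, and Egfr, with a GC box 9 bases before its start. A match is a description of letters and not evidence that a factor binds there, and the windows of Tgfa and Btc, which had more reads in DPPIV+ FAPs, shared no motif of the 4.

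Egfr and Erbb2 lay above all ligands in level, while Erbb3 did not. Summed over the 3 genes, DPPIV- FAPs held 583 ± 32.0 CPM (SD, n = 2) and DPPIV+ FAPs 659 ± 29.7 CPM, whereas the 7 ligands together reached 9.51 ± 0.0704 and 15.4 ± 2.48 CPM. Per kilobase of exon, which makes levels of different genes comparable, Egfr came first in both cell types, at 48.8 ± 3.09 CPM per kilobase in DPPIV- FAPs and 54.9 ± 2.46 in DPPIV+ FAPs. Erbb2 came next with 5.59 ± 0.562 and 5.68 ± 0.00314 CPM per kilobase. In DPPIV- FAPs the order then ran Hbegf (0.878), Btc (0.553), Erbb3 (0.202), Tgfa (0.141), Egf (0.122), Areg (0.0997), Ereg (0.0731) and Nrg1 (0.00478 CPM per kilobase). There the library values of Egf and Areg overlapped, as did those of Areg and Ereg, so these neighbours were not ordered beyond their spread. The lower Tgfa value and the higher Egf value nearly met, both at 0.140 CPM per kilobase. In DPPIV+ FAPs Erbb3 moved up to 1.30 CPM per kilobase, and its library values overlapped those of Hbegf at 1.26, whose values overlapped those of Btc at 1.07. Ereg and Tgfa followed, both at 0.328 CPM per kilobase and overlapping, then Areg (0.137, from 4 and 2 reads) and Egf (0.0686), with Nrg1 at 0. These orders take no account of counting error, which is large for genes with so few reads.

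**Figure D1:**
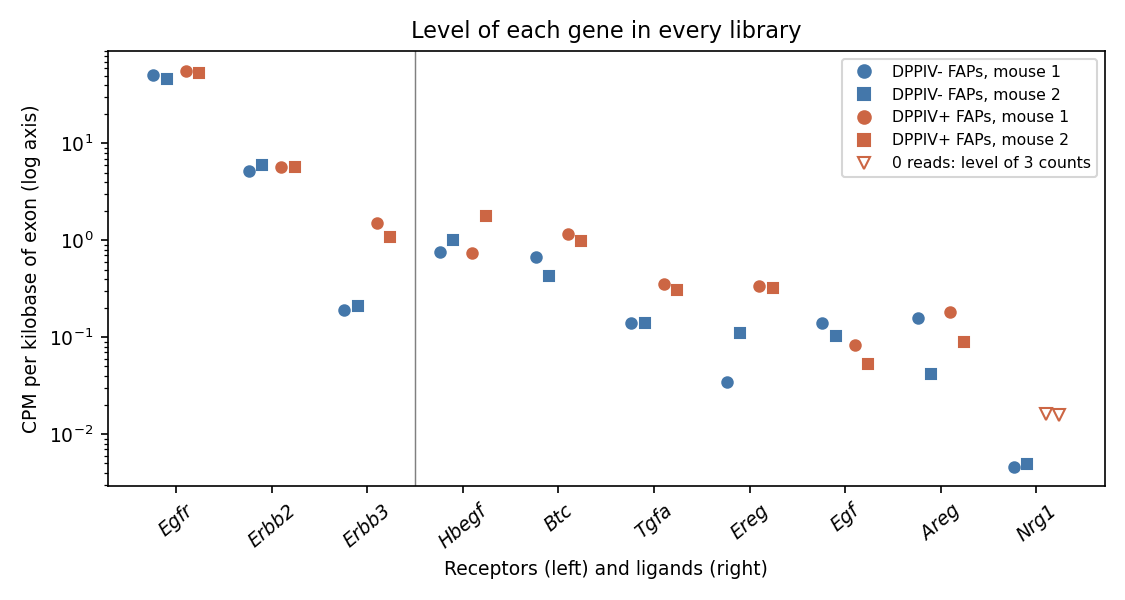
Level of the 3 receptors and 7 ligands in each of the 4 libraries, as CPM per kilobase of exon on a log axis, with blue for DPPIV-, orange for DPPIV+, circles for mouse 1 and squares for mouse 2. Open triangles mark libraries with 0 reads, drawn at the level of 3 counts. Egfr and Erbb2 stand above all ligands in every library. The DPPIV+ points of Erbb3, Btc, Tgfa, Ereg and, by little, Egfr lie above their DPPIV- points.

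Of the 10 genes, 5 had at least 2 CPM in at least 2 libraries and were among the 11588 genes tested with edgeR's quasi-likelihood F test, in which mouse was a block. Past a Benjamini-Hochberg adjusted p of 0.05, Erbb3, Btc and Egfr were higher in DPPIV+ FAPs, 3 of 5 tested, and 0 were lower, also at an unadjusted p under 0.05 and by DESeq2. Over all genes tested 15.9% were called higher and 17.2% lower. Hbegf and Erbb2 did not pass, and Nrg1, Areg, Ereg, Tgfa and Egf were below the filter. With no filter, all 10 were fitted, 5 were called higher (Erbb3, Btc, Egfr, Ereg and Tgfa) and 0 lower, where the shares over all genes were 11.2% and 11.9%. Calls depended on the method. DESeq2's Wald test called 1 of 5 higher (Erbb3) against 7.97% of all genes higher and 8.59% lower, and edgeR without the mouse block also called only Erbb3 among the 5, against 8.64% of all genes higher. With 2 mice the spread of a gene rests on 1 residual degree of freedom, and edgeR took it wholly from the trend over all genes.

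Erbb3 encodes the neuregulin-binding receptor (chromosome 10, 128567523 to 128589652, minus strand, GRCm38). Its read counts were 24 and 25 in the DPPIV- libraries and 164 and 119 in the DPPIV+ libraries. In CPM these were 1.15 and 1.28 against 9.11 and 6.53. Both DPPIV+ libraries lay far above both DPPIV- libraries, and the DPPIV- libraries were nearly alike. The ratio of DPPIV+ to DPPIV- was 7.94 in mouse 1 (95% exact conditional binomial interval 5.16 to 12.8) and 5.11 in mouse 2 (3.30 to 8.21). Such intervals rest on the 2 counts of 1 mouse and cover counting error only. The reads carried no molecular identifiers, so repeat reads of 1 molecule cannot be told apart and the intervals may be too narrow. The fitted log2 fold change was 2.68 (SE 0.25, edgeR adjusted p = 2.05e-24), a 6.40-fold difference, which ranked 56 from the top among the 11588 genes tested. DESeq2 gave an adjusted p of 7.47e-09 and edgeR without the mouse block 5.15e-04. Erbb3 passed the filter only through the DPPIV+ libraries, and it was left untested when 2 CPM were asked of at least 3 libraries.

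Even in DPPIV+ FAPs Erbb3 was a minor receptor by read number. Its share of the reads of the 3 receptors was 0.189% (95% Wilson interval 0.127 to 0.282%) and 0.228% (0.154 to 0.336%) in DPPIV- FAPs and 1.34% (1.15 to 1.56%) and 1.02% (0.856 to 1.22%) in DPPIV+ FAPs. The intervals of the cell types did not overlap. Among all genes tested with a known exon length, 7.27% had a lower mean level per kilobase than Erbb3.

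Erbb3 is known as a gene of Schwann cells, so glial markers are set beside it. Of 7 glial markers 5 were tested. Mbp, a myelin protein gene, was higher (log2 fold change 0.63, SE 0.16, edgeR adjusted p = 2.81e-04), a call lost with DESeq2 (adjusted p = 0.101). Cdh19 and S100b were lower, at -1.90 (SE 0.22) and -1.25 (SE 0.25), and DESeq2 also called these 2 lower. Sox10, a defining transcription factor of glia, had 30 and 7 reads in DPPIV- FAPs and 8 and 15 reads in DPPIV+ FAPs. The summed glial level was 32.2 to 36.2 CPM in DPPIV- FAPs and 25.8 to 32.5 CPM in DPPIV+ FAPs. Within mouse 1 this sum was 36.2 CPM in DPPIV- and 25.8 CPM in DPPIV+ FAPs, and within mouse 2 it was 32.2 and 32.5 CPM. The part of glial and perineurial cells in the Erbb3 difference was not tested. Of 5 perineurial markers 2 were tested, 0 were higher, and Cldn1, which passed the filter only through the DPPIV- libraries, was lower. The summed level of the 5 markers was 17.0 to 18.8 CPM against 16.7 to 16.9 CPM. Krt19, a keratin gene of that list below the filter, was counted 7 and 3 times in DPPIV- FAPs and 30 and 20 times in DPPIV+ FAPs. With no filter its log2 fold change was 2.49 (SE 0.64, edgeR adjusted p = 7.14e-04), and DESeq2 with no filter gave an adjusted p of 0.0628. No glial or perineurial marker was at 0 in all 4 libraries. All 3 tendon cell markers were higher in the DPPIV+ cells, at log2 fold changes of 2.14 (Scx), 1.44 (Mkx) and 1.27 (Tnmd). Their summed level was 29.0 to 35.3 CPM in DPPIV- FAPs and 60.1 to 105 CPM in DPPIV+ FAPs, and their part in the Erbb3 difference was not tested. Among them, Scx passed the filter only through the DPPIV+ libraries. Of 6 mural cell markers 5 were lower and 0 higher in DPPIV+ FAPs, and Kcnj8, among the 5, passed the filter only through the DPPIV- libraries. DESeq2 and edgeR without the mouse block each called 3 of these 6 lower.

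**Figure D2:**
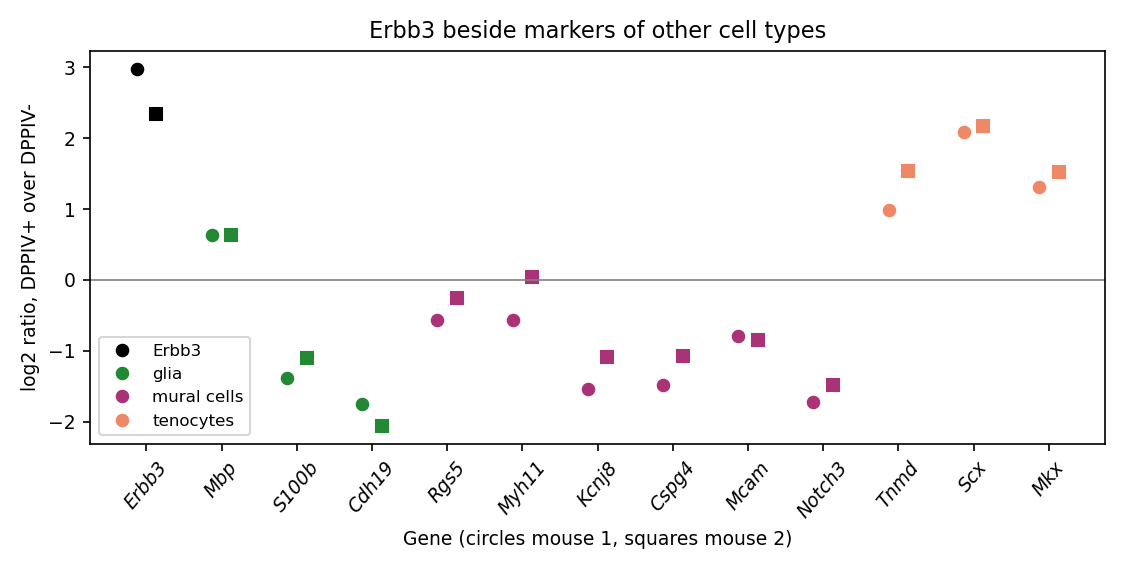
Log2 ratio of DPPIV+ to DPPIV- FAPs in mouse 1 (circles) and mouse 2 (squares) for Erbb3 (black) and markers of glia (green), mural cells (purple) and tendon cells (orange). Erbb3 stands at 2.98 and 2.35, glial markers lie on both sides of 0, and the 3 tendon markers lie above 0.

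The genes whose 4 library values, centred on their mean on the log2 CPM scale, lay closest to those of Erbb3 among all genes tested were Wnt1, Dtna and Pkp2. Wnt1, a Wnt ligand gene, had 6 and 7 reads in DPPIV- FAPs and 53 and 40 reads in DPPIV+ FAPs, at a Euclidean distance of 0.0841 over 4 libraries. Dtna, which encodes a dystrobrevin of the dystrophin complex, was at a distance of 0.222 and Pkp2, which encodes a desmosomal plakophilin, at 0.266. With 4 libraries from 2 mice this likeness is a description only.

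Egfr encodes the EGF receptor (chromosome 11, 16752203 to 16918158, plus strand). It had 12089 and 10332 reads in DPPIV- FAPs and 11544 and 10968 reads in DPPIV+ FAPs, or 577.7 and 528.2 against 641.1 and 601.7 CPM. In CPM both DPPIV+ libraries lay above both DPPIV- libraries, and the lower DPPIV+ library exceeded the higher DPPIV- library by less than the mice differed within a cell type. Egfr made up between 94.2 and 95.3% of the reads of the 3 receptors in each library. The ratio was 1.11 in mouse 1 (interval 1.08 to 1.14) and 1.14 in mouse 2 (1.11 to 1.17). The fitted log2 fold change was 0.17 (SE 0.07, edgeR adjusted p = 0.0441), a 1.12-fold difference near the threshold. The call was lost with DESeq2 (adjusted p = 0.222), without the mouse block (0.285), with 2 CPM asked of at least 3 libraries (0.0514) and in a test against a 1.5-fold change (1.00). With any of the 4 libraries left out, in fits that also had no mouse block, the log2 fold change ran from 0.11 to 0.24. These fits left 1 library in 1 cell type, so only effect sizes are given, which do not show that the call held. The genes closest to Egfr in pattern included Edem1 and Rps27a, at distances of 0.0114 and 0.0117.

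Erbb2 encodes the receptor without a ligand of its own (chromosome 11, 98412470 to 98437716, plus strand). It had 566 and 610 reads in DPPIV- FAPs and 533 and 540 reads in DPPIV+ FAPs, or 27.1 and 31.2 against 29.6 and 29.6 CPM. The DPPIV+ libraries fell between the DPPIV- libraries. The fitted log2 fold change was 0.03 (SE 0.09, edgeR adjusted p = 0.868) with a 95% interval of -0.15 to 0.20, and the mice went opposite ways, at 0.13 and -0.07. The fourth receptor of the family, Erbb4, which binds neuregulins, had 0 reads in every library, at a floor of 0.143 to 0.167 CPM.

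The 7 ligands were low in both cell types, with 200 and 185 summed reads in the DPPIV- libraries and 245 and 312 in the DPPIV+ libraries. The summed CPM of the 7 ligands was 9.56 and 9.46 against 13.6 and 17.1. The log2 ratio of this sum was 0.51 in mouse 1 and 0.86 in mouse 2, and without Hbegf 0.76 and 0.88. These sums are descriptions with no test.

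Hbegf encodes heparin-binding EGF-like growth factor (chromosome 18, 36504927 to 36515805, minus strand). It had 76 and 95 reads in DPPIV- FAPs and 64 and 158 reads in DPPIV+ FAPs, or 3.63 and 4.86 against 3.55 and 8.67 CPM. Only the DPPIV+ library of mouse 2 stood apart, and the cell types overlapped. The ratio was 0.979 in mouse 1 (interval 0.691 to 1.38) and 1.78 in mouse 2 (1.38 to 2.33). The fitted log2 fold change of 0.47 (SE 0.21) did not pass (edgeR adjusted p = 0.0761, and 0.692 by DESeq2). In fits with a library left out and no mouse block, the log2 fold change was 1.03 without the DPPIV+ library of mouse 1. Without the DPPIV+ library of mouse 2 it was -0.25, so the value rests on a single library. Hbegf is a gene that cell stress can induce. Of 12 genes of the dissociation response 2 were higher and 9 lower in DPPIV+ FAPs, against 15.9% and 17.2% of all genes tested. DESeq2 called 2 higher and 8 lower, and edgeR without the mouse block 0 and 5. The 12 genes had summed levels of 13914 to 14155 CPM in DPPIV- FAPs and 10925 to 12473 CPM in DPPIV+ FAPs. The part of dissociation in the Hbegf values was not tested.

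Btc encodes betacellulin, a ligand of EGFR and ERBB4 (chromosome 5, 91357261 to 91402994, minus strand). It had 64 and 38 reads in DPPIV- FAPs and 94 and 81 reads in DPPIV+ FAPs, or 3.06 and 1.94 against 5.22 and 4.44 CPM. Both DPPIV+ libraries lay above both DPPIV- libraries, in which the mice differed by more than in DPPIV+ FAPs. The ratio was 1.71 in mouse 1 (interval 1.23 to 2.38) and 2.29 in mouse 2 (1.54 to 3.46). The fitted log2 fold change was 0.96 (SE 0.24, edgeR adjusted p = 3.26e-04), a 1.94-fold difference. The call was lost with DESeq2 (adjusted p = 0.123), without the mouse block (0.0549) and against a 1.5-fold change (0.165). With a library left out, in fits that also had no mouse block, the log2 fold change ran from 0.66 to 1.31. Such fits left 1 library in 1 cell type, so only effect sizes are given, which do not show that the call held.

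Tgfa encodes transforming growth factor alpha (chromosome 6, 86195223 to 86275719, plus strand). It had 19 and 18 reads in DPPIV- FAPs and 41 and 36 reads in DPPIV+ FAPs, or 0.908 and 0.920 against 2.28 and 1.98 CPM. Both DPPIV+ libraries were above both DPPIV- libraries, yet Tgfa fell below the filter because only 1 library reached 2 CPM. The ratio was 2.51 in mouse 1 (interval 1.42 to 4.57) and 2.15 in mouse 2 (1.19 to 4.01). With no filter the log2 fold change was 1.22 (SE 0.39, edgeR adjusted p = 0.0106). DESeq2 with no filter gave an adjusted p of 0.317, and without the mouse block edgeR gave 0.0479.

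Ereg encodes epiregulin (chromosome 5, 91074622 to 91093646, plus strand). It had 3 and 9 reads in DPPIV- FAPs and 25 and 24 reads in DPPIV+ FAPs, or 0.143 and 0.460 against 1.39 and 1.32 CPM. The DPPIV+ libraries were alike and the DPPIV- libraries were lower and further apart. The ratio was 9.69 in mouse 1, with a wide interval of 2.96 to 50.1 since it rests on 3 reads, and 2.86 in mouse 2 (1.28 to 7.00). With no filter the log2 fold change was 2.19 (SE 0.61, edgeR adjusted p = 0.00227), and the call was lost with DESeq2 (adjusted p = 0.110) but not without the mouse block (0.0357). Its share of all ligand reads was 1.50% (Wilson interval 0.511 to 4.32%) and 4.86% (2.58 to 8.99%) in DPPIV- FAPs, against 10.2% (7.01 to 14.6%) and 7.69% (5.22 to 11.2%) in DPPIV+ FAPs, and these intervals overlapped in mouse 2.

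Egf encodes the founding ligand of the family (chromosome 3, 129677565 to 129755316, minus strand). It had 33 and 23 reads in DPPIV- FAPs and 17 and 11 reads in DPPIV+ FAPs, or 1.58 and 1.18 against 0.944 and 0.603 CPM. Unlike Btc, Tgfa and Ereg, Egf was lower in the DPPIV+ library of each mouse, with no overlap between cell types. The ratios of 0.599 (interval 0.313 to 1.11) and 0.513 (0.226 to 1.10) both had intervals that reached 1. With no filter the log2 fold change of -0.82 (SE 0.47) did not pass (edgeR adjusted p = 0.240). Exons of Egf share 607 bases with the antisense gene Gm42697 and 500 bases with 6330410L21Rik, and because the strand setting of the counting is not given in the sources used here, reads of these genes cannot be told apart with certainty. The same holds for Nrg1 (482 bases shared with Gm26578), Ereg (141 bases, Gm19610), Tgfa (118 bases, Gm43917) and Erbb2 (9 bases, Mien1).

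Areg encodes amphiregulin, which regulatory T cells of injured muscle are known to make (chromosome 5, 91139599 to 91148432, plus strand). It had 4 and 1 reads in DPPIV- FAPs and 4 and 2 reads in DPPIV+ FAPs, so that no difference was detectable at this depth. The intervals of its ratio ran from 0.217 to 6.24 in mouse 1 and from 0.112 to 127 in mouse 2. Foxp3, the defining gene of regulatory T cells, had 1 read in all 4 libraries together. Nrg1, which encodes a ligand of ERBB3 (chromosome 8, 31814551 to 32884029, minus strand), had 1 read in each DPPIV- library and 0 in each DPPIV+ library. At 3 counts per library, Nrg1 was at or under the floor in both cell types, and no fold is given.

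**Figure D3:**
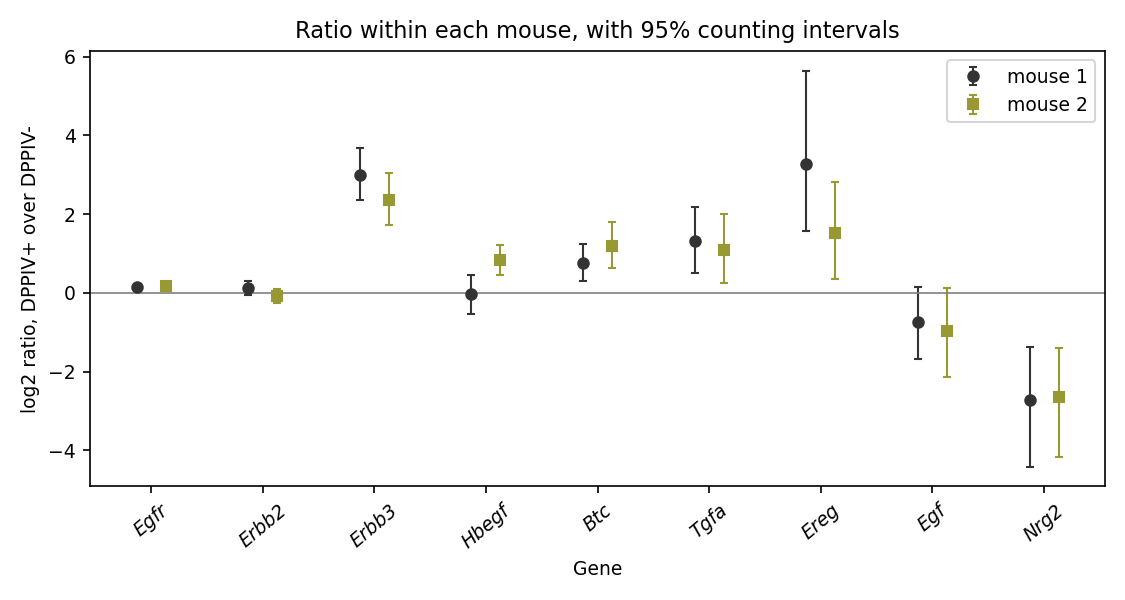
Log2 ratio of DPPIV+ to DPPIV- FAPs within mouse 1 (dark circles) and mouse 2 (olive squares), with 95% exact conditional binomial intervals that cover counting error only. Erbb3, Btc, Tgfa, Ereg and, by little, Egfr lie above 0 with their intervals in both mice, and Hbegf does so only in mouse 2. Egf has intervals that reach 0, and Nrg2 lies below 0. Areg and Nrg1 are not drawn because of their few reads.

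The other family genes were few in reads. Nrg2, which encodes a second neuregulin that binds ERBB3 and ERBB4, had 38 and 40 reads in DPPIV- FAPs and 5 and 6 reads in DPPIV+ FAPs, or 1.82 and 2.05 against 0.278 and 0.329 CPM. The 2 DPPIV- libraries lay well above the 2 DPPIV+ libraries, a pattern opposite to that of Erbb3. The ratio was 0.153 in mouse 1 (interval 0.0470 to 0.389) and 0.161 in mouse 2 (0.0558 to 0.382). With no filter its log2 fold change was -2.63 (SE 0.53, edgeR adjusted p = 5.84e-06), with adjusted p = 0.0159 by DESeq2 and 0.00324 without the mouse block. Nrg3 and Nrg4, the remaining neuregulins, had 0 reads in every library. Epgn, which encodes epigen, had 2 and 4 reads in DPPIV- FAPs and 5 and 1 in DPPIV+ FAPs, with no detectable difference. Epgn, Ereg, Areg and Btc lie in this order on chromosome 5, with gaps of 39.4, 46.0 and 208.8 kb and 0 protein-coding genes between them. Of these 4 neighbours, Btc was called higher, Ereg was called only with no filter, and Epgn and Areg were near the floor.

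The surrounding pathway was described from 4 lists of genes, of which 67 were tested, 15 were higher and 27 lower in DPPIV+ FAPs. Fewer genes passed in each direction with a library left out, in fits that also had no mouse block. Set against the 15.9% and 17.2% over all genes, the lists are read by their counts and medians, beside a median log2 fold change of -0.00 over all genes tested. Of 12 tested genes that process the ligands, 4 were higher and 6 lower, with a median log2 fold change of -0.08. The sheddases Adam10 and Adam15 were higher, at 0.36 (SE 0.07) and 0.29 (SE 0.07). Adam10 stood at 86.8 and 84.2 CPM in DPPIV- FAPs against 111 and 109 CPM in DPPIV+ FAPs, and Adam17, the main sheddase of several EGFR ligands, at 142 and 144 against 180 and 169 CPM. Adam12 fell by 1.38 on the log2 scale (SE 0.08), from 933 and 1737 reads to 325 and 600, and Rhbdf2, which encodes the ADAM17 partner iRhom2, fell by 1.17 (SE 0.24), from 119 and 100 reads to 45 and 42. Adam17 was also past the threshold, at a log2 fold change of 0.29 (SE 0.07), and the 4 higher genes differed by at most 0.36 on the log2 scale.

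Of 16 negative regulators of the receptors and of RAS signalling, all tested, 4 were higher and 9 lower, with a median log2 fold change of -0.20. Errfi1, which encodes the direct EGFR inhibitor MIG6, was higher, with DPPIV- libraries at 534 and 631 CPM and DPPIV+ libraries both at 1068 CPM. The fitted difference was 0.88 on the log2 scale (SE 0.07, edgeR adjusted p = 7.46e-34), with 5.34e-19 by DESeq2. Cblb, which encodes a ubiquitin ligase that marks active EGFR for degradation, was higher at 0.48 (SE 0.07). Spry4, a Sprouty inhibitor of RAS-ERK signalling, fell by 1.28 (SE 0.08), from 54.2 and 63.0 to 22.5 and 25.9 CPM. Ptprk, a receptor phosphatase that can act on EGFR, fell by 1.15 (SE 0.19). The Sprouty genes did not move as a group, since Spry1 was lower at -0.92 (SE 0.07) while Spry2 was higher at 0.33 (SE 0.07).

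Of 27 adaptors and kinases of the cascade, all tested, 4 were higher and 4 lower, with a median log2 fold change of 0.04. The calls were small in size, with Hras higher by 0.30 and Pik3r1 and Gab2 lower at -0.31 and -0.29. DESeq2 called 0 of these 27 higher (1 at an unadjusted p under 0.05) and 1 lower, where edgeR gave 4 and 4. The 27 genes summed to 2277 and 2310 CPM in DPPIV- FAPs and 2218 and 2243 CPM in DPPIV+ FAPs.

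Of 12 tested genes that ERK signalling is known to induce, 3 were higher and 8 lower, with a median log2 fold change of -0.32. Fosl1, an AP-1 subunit gene, had 17 and 46 reads in DPPIV- FAPs and 111 and 70 reads in DPPIV+ FAPs. Its log2 ratio was 2.91 in mouse 1 but 0.71 in mouse 2, and the fitted value of 1.68 (SE 0.26, edgeR adjusted p = 9.83e-10) was not called by DESeq2 (adjusted p = 0.269). Ccnd1, which encodes cyclin D1, was higher with little spread, at 41.7 and 44.7 against 74.0 and 80.0 CPM and a log2 fold change of 0.84 (SE 0.07). The ETS factor genes Etv1 and Etv4 were lower, at -1.45 (SE 0.16) and -1.41 (SE 0.21). Etv1 stood at 15.3 CPM in both DPPIV- libraries and at 5.55 and 5.71 CPM in DPPIV+ FAPs, and Dusp6, an ERK phosphatase gene, at 43.5 and 53.8 against 21.5 and 25.1 CPM. Several of these genes are also induced by FGF signalling and, as for Fos and Egr1, by dissociation, so the list is not specific to ErbB receptors, and which input differed was not tested.

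**Figure D4:**
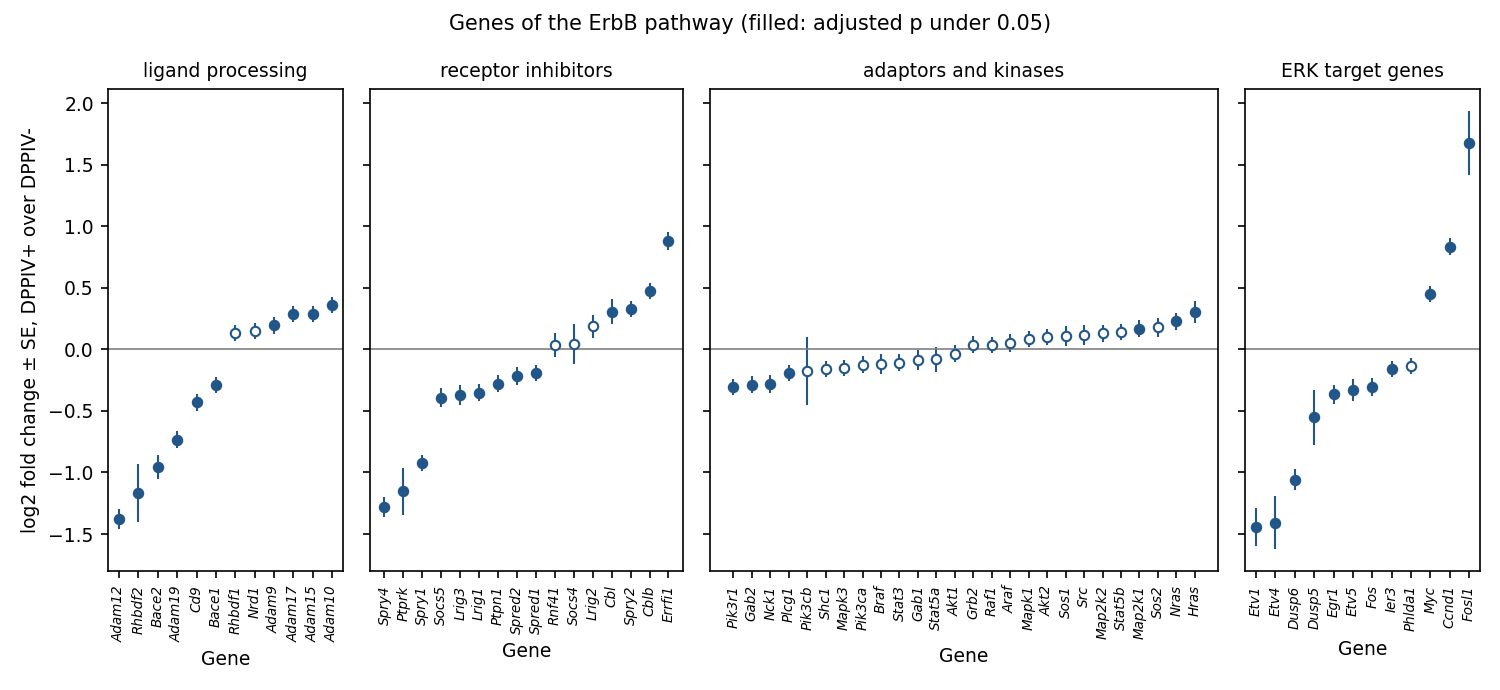
Log2 fold change (DPPIV+ over DPPIV-, from the edgeR fit, with its SE) of genes in the 4 pathway lists, filled where the adjusted p was under 0.05. Adaptors and kinases lie within -0.31 and 0.30, while Adam12 (-1.38), Spry4 (-1.28), Etv1 (-1.45) and Etv4 (-1.41) lie lowest and Errfi1 (0.88), Ccnd1 (0.84) and Fosl1 (1.68) highest.

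Markers of cells that the sort should remove are set beside these results. Of 9 macrophage and leukocyte markers 5 were tested, 0 were higher and 3 lower in DPPIV+ FAPs, with summed levels of 173 to 294 CPM in DPPIV- FAPs and 166 to 182 CPM in DPPIV+ FAPs. The T cell gene Cd3g was at 0 in all 4 libraries. Of 5 endothelial markers 0 were higher and 3 lower, with sums of 36.5 to 64.4 and 34.8 to 40.9 CPM. DESeq2 and edgeR without the mouse block each called 0 of these leukocyte and endothelial markers lower. Within mouse 2 the leukocyte sum was 173 CPM in DPPIV- and 166 CPM in DPPIV+ FAPs, and the endothelial sum 36.5 and 34.8 CPM. Of 6 satellite cell and myofibre markers 3 were tested and 0 passed in either direction, with sums of 31.3 to 45.2 and 32.6 to 46.3 CPM. The highest leukocyte and endothelial sums were both in the DPPIV- library of mouse 1, and their part in the values of Hbegf, Egf and Nrg2 was not tested. In the marker lists with 0 higher calls by edgeR (perineurium, leukocytes, endothelium, mural cells, satellite cells and myofibres), 0 of the genes that passed the filter were higher at an unadjusted p under 0.05, and 0 by DESeq2. With no filter, Krt19 of the perineurial list was called higher.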

How the data were processed

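Bulk RNA was sequenced from DPPIV- and DPPIV+ FAPs of 2 mice. Per the labels and the study's methods, paired-end reads were demultiplexed with bcl2fastq 2.20, aligned to mm10 with STAR and counted per gene with RnaReadCounter. Bowtie is also named in the submitters' processing notes. The labels name a NEBNext and the methods a TruSeq stranded mRNA kit, and the annotation release and strand setting of the counting are not given in the sources used here. The authors deposited raw counts, 1 whole number per symbol and library, without a filter.

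From these, a gene was kept if 2 or more libraries reached 2 CPM (11588 of 24421). They were tested in R 4.3.3 with edgeR 4.0.16 (TMM, quasi-likelihood F test, mouse and cell type in the model, two-sided, Benjamini-Hochberg adjustment over all genes kept, threshold 0.05). The SE is the log2 fold change over the square root of F, and 95% intervals of fold changes are the value ± 1.96 SE. DESeq2 1.42.0 was an alternative, beside no mouse block, RLE scaling, other filters, robust moderation, a test against a 1.5-fold change and each library or mouse left out. Fits with a library left out also had no mouse block, so they cannot separate the missing library from the missing pairing. Log2 ratios per mouse used a prior count of 0.125. Lengths and positions came from GENCODE M21 on GRCm38, and promoters from RefSeq.

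The labels give each animal number to 1 DPPIV- and 1 DPPIV+ library, so the pairing comes from the animal. Differences between mice in the DPPIV- and the DPPIV+ libraries had r = 0.445 across 11588 genes, which are not independent. All named genes were fixed by rule: the 10 family genes, 5 other family genes, the 2 largest and 2 smallest changes past the threshold with the same sign in both mice in each pathway list, and 3 genes of nearest pattern to the called family genes with the largest and smallest change. Adam17, Dusp6, Spry1, Spry2 and the markers were named after their values were seen. A few genes that these rules or lists include are not reported here. The family genes and lists were chosen with earlier results of these data known.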

Additional observations from a re-analysis of the deposited data

How the results depend on the processing

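Erbb3 was called higher in DPPIV+ FAPs under each alternative in which it was tested (adjusted p 9.91e-27 to 0.00253). The 3 calls among the family genes became 1 with DESeq2, with no replicate block for the paired mice and against a 1.5-fold change. They became 1 with 2 CPM in at least 3 libraries and 5 with no filter. Robust moderation and the test against a 1.5-fold change return the same fold change as the fit they alter and could not reverse it. With these included, the log2 fold changes of the 10 genes kept their direction in 88 of 92 alternatives. The exceptions were Hbegf, which ran from -0.25 to 1.03 with a library or mouse left out (-0.03 without mouse 2), and Erbb2, from -0.074 to 0.13 (-0.072 without the DPPIV- library of mouse 1). Over all genes, the 1837 higher and 1989 lower calls became 923 and 995 with DESeq2, 1001 and 1119 with no replicate block, 436 and 656 against a 1.5-fold change, and 632 to 1049 and 732 to 1121 with a library left out. The 15 higher and 27 lower pathway genes became 8 and 16 with DESeq2, 9 and 16 with no replicate block, 3 and 10 against a 1.5-fold change, and 2 to 7 and 9 to 18 with a library left out, each lowest without the DPPIV+ library of mouse 1. The cause of these drops was not tested. RLE scaling and robust moderation left the 3 calls among family genes in place. The fits with no filter combined with DESeq2, no block, RLE or robust moderation, for genes below the filter, were added after seeing the data. With 1 mouse left out, values but no tests were computed. Read number limits Ereg, Areg, Nrg1 and Epgn, each with at most 25 reads in a library.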
